A study of Mus musculus with 8 samples.

Results

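Messenger RNAs of chaperone and heat shock genes were followed in an immunoprecipitation of DAZL from gonads of E14.5 mouse embryos. In RNA immunoprecipitation (RIP), RNA that comes down with a protein is set against RNA of the lysate it was taken from, the input. The members were all non-control array probes whose gene name began with Hsp or Dnaj, or was Cct with a number, which gave 135 probes of 73 genes among 27566 gene names on the array. The name rule also took Hspc171, now Tmem208, a membrane protein of the endoplasmic reticulum (ER) and no chaperone. Hsp110 and Dnajb10 are given by their current symbols, Hsph1 and Dnajb2.

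The 4 groups were XX input, XX IP, XY input and XY IP, each of 2 arrays, from whole gonads of strain MCH at E14.5, with no mutation or drug named in the labels. Lots of 50 gonads were lysed, 5% of the lysate was kept as input, and Cy3 labelling started from 50 ng of RNA for an input and 1 ng for an IP. An IP with a control antibody was not analysed here, so enrichment is relative to the input alone and unspecific carry-over was not measured. The labels do not say whether replicates came from separate lots of embryos, so p-values measure only the spread between these samples.

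Chaperones bind unfolded proteins and help them to fold. HSP70 proteins work through cycles of ATP hydrolysis that J-domain proteins (DNAJ) start, HSP90 acts later on bound clients with its own partners, small heat shock proteins hold unfolded proteins, and the CCT ring folds actin and tubulin in a chamber. DAZL is an RNA-binding protein of germ cells that is known for raising translation of its targets. Heat shock factors induce many chaperones in the cytosol through the heat shock element, and unfolded proteins in the ER induce another set through the ER stress element.

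The promoters of several members named below carry one of these elements, and they are shown so that the members with each element can be followed through the results. Windows from 250 bases before to 50 after each gene start (RefSeq, GRCm38.p6) were searched on both strands, with overlaps allowed. The ER stress element, searched as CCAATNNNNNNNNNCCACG and on the other strand as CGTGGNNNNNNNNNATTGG, was in 39 of all 32851 windows (0.119%) and in 3 of the 79 windows of members (3.8%), those of Hspa5, Hsp90b1 and Dnajc3. The heat shock element, searched as GAANNTTCNNGAA and on the other strand as TTCNNGAANNTTC, was in 198 of all windows (0.603%) and in 6 of those of members (7.59%), which belong to Dnajb6, Hspd1, Hspe1 and Hsph1. Windows and not sites were counted: Dnajb6 and Hsph1 each had overlapping windows with the same match, which in Hsph1 lay after the gene start. Windows were found for 60 of the 73 genes. Capitals mark the match in each sequence, a match is a description of letters and no measured binding site, and Hspd1 shares the Hspe1 stretch on the other strand.
Hspa5, chr2:34772005-34772063, plus strand: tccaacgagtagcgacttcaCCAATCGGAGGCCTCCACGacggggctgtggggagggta
Hsp90b1, chr10:86705513-86705676, minus strand: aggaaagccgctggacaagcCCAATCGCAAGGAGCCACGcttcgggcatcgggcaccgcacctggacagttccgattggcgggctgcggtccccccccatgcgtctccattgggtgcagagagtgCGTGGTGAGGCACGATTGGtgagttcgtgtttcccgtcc
Dnajc3, chr14:118937807-118937865, plus strand: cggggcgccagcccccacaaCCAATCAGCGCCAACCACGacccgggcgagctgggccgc
Dnajb6, chr5:29735832-29735884, plus strand: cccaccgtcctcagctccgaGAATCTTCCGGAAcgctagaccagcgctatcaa
Hspe1, chr1:55088039-55088096, plus strand: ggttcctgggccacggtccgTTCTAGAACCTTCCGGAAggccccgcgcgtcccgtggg

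Levels are log2 signals less the 75th percentile of their array, and a difference is the mean IP level minus the mean input level. A probe was called enriched or depleted at a difference of at least 4-fold (2 on the log2 scale) with an adjusted p under 0.05 in limma, adjusted over the 18253 probes that both arrays of some group had measured well above background. IP arrays were far dimmer than inputs: 6057 to 9462 probes were well above background on an IP array and 16707 to 20381 on an input array, and of the member probes 45 to 66 against 94 to 105. In the IPs the lowest detected level lay between 0.029 and 1.02 and in the inputs between -3.59 and -2.34, so a probe at background in an IP can sit above its own input after scaling. Such calls are named as background values. No probe was saturated.

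The RNA of Dazl, the gene of the protein pulled down, was read first, and the arrays do not measure recovery of the protein. The study followed the DAZL protein itself by western blot. Dazl RNA lay at 5.30 and 5.39 in the XX inputs, 8.23 and 7.83 in the XX IPs, 3.92 and 4.33 in the XY inputs, and 6.33 and 6.04 in the XY IPs. Both IP groups lay above their inputs with no overlap, by 2.69 for the XX arrays (limma, adjusted p = 0.000311) and 2.06 for the XY arrays (adjusted p = 0.00201). Its other probe differed by 3.09 and 2.93. The summed linear level of 7 germ cell markers was 105.3 to 116 in the XX inputs and 425.8 to 449.7 in the XX IPs, and 187.8 to 218.3 against 678.5 to 1037 in XY. Without Dazl itself the other 6 summed to 65.83 to 74.19 and 148.7 to 198.1 in XX, and to 172.6 to 198.2 and 598.1 to 971.1 in XY. Most of that sum in the XY IPs came from Dppa3, whose log2 level was 8.457 and 9.355 there. Mael went against the sum, with differences of -0.59 and -0.92 that did not pass the test, and Nanos3 in all IPs and Pou5f1 in those of XX were at background. Markers of other cells differed among themselves. Krt8 and Krt18 of epithelium summed to 29.65 to 30.17 in the XX inputs and 4.56 to 6.54 in the XX IPs, and to 8.49 to 9.93 and 3.51 to 3.76 in XY, and Cdh5 and Kdr of endothelium were at background on both XX IP arrays. In XY the Sertoli markers summed to 179.7 to 214.2 in the inputs and 54.79 to 106.2 in the IPs. Cst9, the brightest, made up most of these sums and did not pass the test (-1.08), nor did Sox9 (0.01) and Amh (-0.92). Dhh and Ptgds were depleted. The Leydig markers summed to 77.34 to 82.29 and 10.37 to 17, with Cyp11a1 short of the test (-3.19, adjusted p = 0.0562). The sums of 3 blood markers overlapped in XY, at 924.1 to 1085 and 449.1 to 1429, and not in XX, at 622.5 to 936 and 173 to 413. Of the 3, Hba-a1 and Alas2 were depleted in XY (-2.24 and -2.70), while the brightest Hbb-b1 probe differed by 0.13. The Sertoli markers of XX, at 1.71 to 1.81 in the inputs, were all at background in the IPs. The part of cell type in the differences below was not tested.

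Of the 73 genes, 62 had a probe that passed the filter on dim probes (101 of 135 probes), and 11 did not: Dnajb5, Dnajb7, Dnajb8, Dnajb13, Dnajb14, Dnajc5b, Dnajc5g, Hspa1l, Hspb3, Hspb6 and Hspb7. Among the 101 probes, 12 were enriched in the XX IP (11.9%; 14.0% of all probes tested were) and 10 were depleted (9.9%; 9.92% of all). In XY, 11 were enriched (10.9%; 10.2% of all) and 11 depleted (10.9%; 7.69% of all). Counting only enriched probes above background on both IP arrays left 8 in XX (7.92%; 8.19% of all) and 6 in XY (5.94%; 6.05% of all). At 1 probe per gene, 6 of the 62 genes were enriched and 9 depleted in XX (9.68% for the former), beside 13.6% and 11.3% of 13531 genes, and in XY 5 (8.06%) and 7 (11.3%), beside 9.96% and 8.40%. The median difference of the 101 probes was -0.07 in XX and -0.28 in XY, beside 0.09 and -0.04 over all probes. The balance of calls depended on scaling: with quantile normalization 7 were enriched in XX (6.93%; 8.10% of all probes) and 19 depleted (18.8%; 18.0% of all). With scaling to the 50th percentile, under which the median of all probes was -1.92 in XX, 2 were enriched (1.98%; 1.04% of all) and 52 depleted (51.5%; 47.4% of all). With normexp background correction 1 probe stayed enriched in each sex (0.990%; 0.433% of all probes in XX and 0.356% in XY), and 20 were depleted in XX (19.8%; 11.3% of all) and 13 in XY (12.9%; 5.69% of all). Of the 39 members that every array detected, 4 were enriched in XX (10.3%; 24.7% of all such probes) and 5 in XY (12.8%; 20.0% of all). In XY the share of depleted members lay above that of all probes under each alternative run, with quantile normalization at 14.9% beside 13.6%. The 11 depleted there in the main setting include both Hsp90b1 probes, and probes of Cct3, Dnajc2 and Hspd1 at background in both XY IPs. In XX the share lay above or below that of all probes with the setting. The alternatives re-use the same arrays, and neither sex was tested as a list. Leaving out XX IP replicate 1 gave 19 enriched probes in XX (18.8%; 15.6% of all). Of the 22 calls in each sex, 6 held under every alternative of scaling, background, filter and test that was run, namely Hspa5, both Hsp90b1 probes, Dnajc15 and Dnajc19 in both sexes, the brightest Dnajb9 probe in XX and Dnajc12 in XY. Those of Dnajb6 and Dnajc10 were lost with normexp and with scaling to the 50th percentile.

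The calls are given by family in the plot of differences, to be read beside the 14.0% enriched and 9.92% depleted of all probes in XX and the 10.2% and 7.69% in XY, and families were not tested against each other. DNAJB held the largest share of enriched probes among families of over 5 probes, 4 of 15 in XX (26.7%) and 5 of 15 in XY (33.3%), all of Dnajb9 or Dnajb6. HSP90 held 2 of 5 probes depleted in both sexes, both of Hsp90b1. DNAJA had no call at 4-fold. DNAJC and HSP70/HSP110 had calls both ways, with 3 enriched and 3 depleted of 33 DNAJC probes in XX (9.09% each), and 4 and 3 in XY (12.1% and 9.09%). Of the 23 HSP70/HSP110 probes, 3 were enriched (13%) and 1 depleted (4.35%) in XX, and 2 (8.7%) and 3 (13%) in XY.

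**Figure D1:**
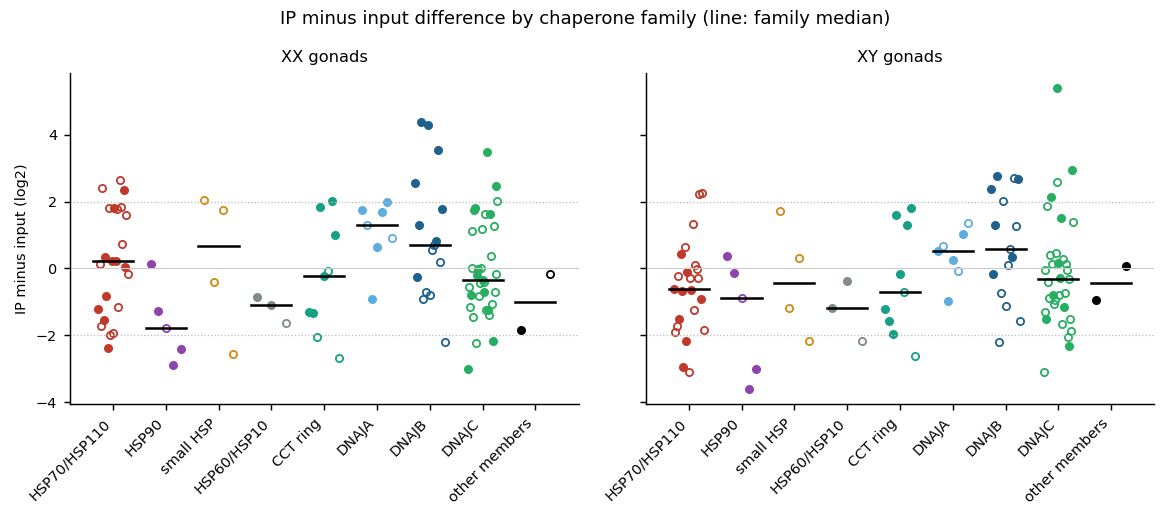
IP minus input difference (log2, y axis) of the 101 probes that passed the filter, by chaperone family (x axis), in XX (left) and XY gonads (right). Each point is a probe, filled where it was above background on both IP arrays of that sex, black lines are family medians, and dotted lines mark 4-fold; the highest DNAJB points in XX are the 3 Dnajb9 probes, and the lowest HSP90 points in both sexes are those of Hsp90b1.

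Among J-domain proteins of the ER, Dnajb9, a co-chaperone of the ER HSP70 Hspa5, was the member most enriched in XX. At chr12:45076612-45076671 (mm8, as in the array files), its brightest probe lay at 1.84 and 2.10 in the XX inputs and 6.01 and 6.70 in the XX IPs, and at 1.57 and 1.61 in the XY inputs and 4.20 and 4.49 in the XY IPs. Neither sex showed overlap between IP and input. The difference was 4.38 ± 0.40 (SE) in XX, a 20.9-fold enrichment (limma, adjusted p = 6.17e-05, n = 2 and 2), and 2.76 ± 0.40 in XY (6.76-fold, adjusted p = 0.000447). The other probes of Dnajb9 differed by 4.28 and 3.56 in XX and by 2.02 and 2.69 in XY, where each was above background on 1 of 2 IP arrays. All 3 probes were thus enriched in both sexes, although the 3.56 of XX was 2.86 without XX IP replicate 2 and 4.25 without XX IP replicate 1, and the 2.02 of XY lost its call without XY input replicate 2 (1.82) or XY IP replicate 2 (1.60). The sexes did not differ past the threshold for this gene (1.63 for the brightest probe, adjusted p of the difference = 0.16).

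Dnajc10, an ER reductase with a J domain that breaks disulfide bonds, was enriched in both sexes too. Its brightest probe (chr2:80154447-80154506) lay at 2.20 and 2.62 in the XX inputs, 4.63 and 5.09 in the XX IPs, 2.87 and 3.21 in the XY inputs, and 5.73 and 6.21 in the XY IPs. The IPs were 5.47-fold higher in XX (adjusted p = 0.000661) and 7.62-fold higher in XY (adjusted p = 0.00035), without overlap. A second probe differed by 1.81 and 2.12, and the last, detected on 1 of 4 IP arrays, by 2.01 and 1.39. Dnajb11, another ER co-chaperone, was higher in the IPs by 1.31 in both sexes and stayed under 4-fold. Dnajc1, an ER membrane J protein, was lower by 1.16 in XX and 1.30 in XY at 1 probe, and its other probe differed by -0.555 and -0.03.

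Dnajc3, an ER protein that holds back kinases of the initiation factor eIF2, gave unlike values between its probes, whose places on its transcripts were not determined here, as for the other genes with unlike probes below. Its probe at chr14:117861467-117861526 lay at 0.34 and 0.39 in the XX inputs and 3.41 and 4.25 in the XX IPs, a difference of 3.47 (11.1-fold, adjusted p = 0.000164). In XY it lay at -1.18 and -1.05 in the inputs, and both IP arrays were at background, so no XY fold is given. The probe nearest to it, at chr14:117860587-117860646, was lower in the XX IPs by 1.38. The 2 probes before that differed by 1.75 and 1.62 in XX, and by 0.40 and 0.13 in XY. Thus 3 of the 4 probes were higher in the XX IPs and 1 was lower.

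Hspa5 and Hsp90b1, chaperones of the ER, were lower in the IPs, unlike Dnajb9 and Dnajc10 and like Dnajc1. Hspa5, the ER HSP70 known as BiP, lay at 5.89 and 6.09 in the XX inputs, 3.27 and 3.94 in the XX IPs, 5.61 and 5.88 in the XY inputs and 2.17 and 3.46 in the XY IPs. It was 5.22-fold lower in the XX IPs (adjusted p = 0.00196) and 7.63-fold lower in the XY IPs (adjusted p = 0.000854), where the difference of -2.93 was -2.29 without XY IP replicate 1 and -3.57 without XY IP replicate 2. Hsp90b1, the ER HSP90 known as GRP94, lay at 6.47 and 6.82 in the XX inputs, 4.13 and 4.35 in the XX IPs, 6.33 and 6.73 in the XY inputs and 3.31 and 3.74 in the XY IPs. This was 5.31-fold lower in XX (adjusted p = 0.000621) and 7.99-fold lower in XY (adjusted p = 0.000259), and the second probe was 7.33-fold and 12-fold lower. For both genes every IP array lay under every input array of its sex. The plot of levels shows these genes beside the enriched ones.

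**Figure D2:**
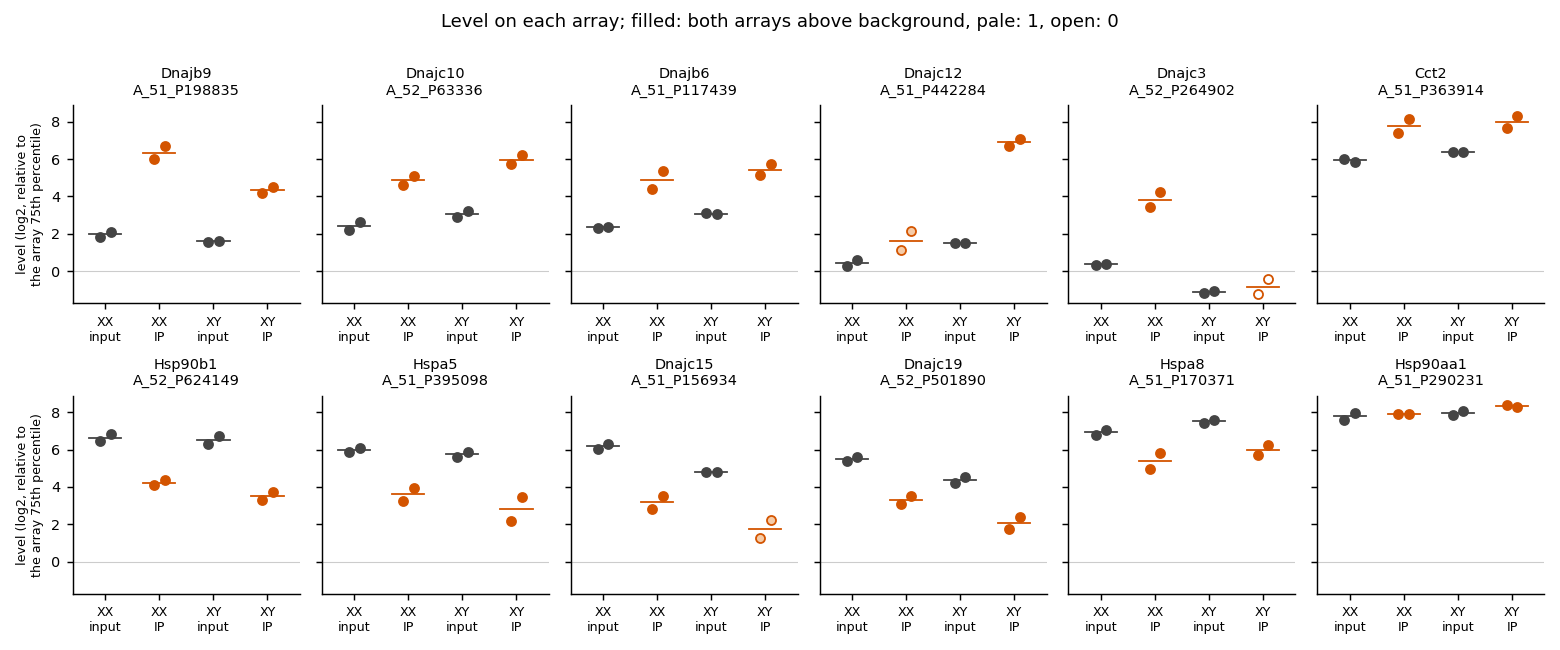
Level of 12 probes on each of the 8 arrays (log2, relative to its 75th percentile, y axis), by group (x axis), with a line at each group mean. Inputs are grey and IPs orange, points are filled where both arrays of the group were above background, pale where 1 was and open where none was; the top row holds the probes that were higher in at least 1 IP and the bottom row those that were lower, with Hsp90aa1 as a probe that differed by 0.12 and 0.36.

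The cytosolic HSP90 genes gave smaller differences than Hsp90b1, which was not tested between genes. Hsp90aa1, the stress-inducible form, lay at 7.59 and 7.98 in the XX inputs, 7.93 and 7.89 in the XX IPs, 7.88 and 8.09 in the XY inputs and 8.41 and 8.29 in the XY IPs. Its difference of 0.12 in XX and 0.36 in XY did not pass the test (adjusted p = 0.80 and 0.47, respectively). Hsp90ab1, the constitutive form, was lower in the XX IPs by 1.26 (adjusted p = 0.033) and differed by -0.15 in XY.

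Of the J proteins outside the ER, Dnajb6, which keeps proteins with long glutamine tracts from aggregating, was enriched in both sexes. Its brightest probe (chr5:30097214-30097273) lay at 2.33 and 2.37 in the XX inputs, 4.40 and 5.38 in the XX IPs, 3.11 and 3.06 in the XY inputs, and 5.16 and 5.73 in the XY IPs. The IPs were 5.83-fold higher in XX (adjusted p = 0.000776) and 5.14-fold higher in XY (adjusted p = 0.00171). A probe further 5′, at chr5:30081791-30083199, differed by 1.76 and 2.67, and one further 3′, at chr5:30117108-30117167, by 0.71 and 0.60. The last did not pass the test in either sex.

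Dnajc12, a co-chaperone of the hydroxylases of aromatic amino acids, had the largest difference of any member, and it was in XY. Its single probe (chr10:62803820-62803879) lay at 1.53 and 1.51 in the XY inputs and 6.73 and 7.08 in the XY IPs, a 41.8-fold enrichment (5.39 ± 0.44 SE, adjusted p = 2.23e-05). In XX it lay at 0.29 and 0.58 in the inputs and 1.11 and 2.13 in the IPs, of which 1 was above background. The IP-minus-input difference was lower in XX than in XY by 4.20, and this passed the test of the difference itself (adjusted p = 0.00539). The call held without each of the 8 arrays in turn, with values from -4.71 to -3.70, and was lost with normexp (-2.87, adjusted p = 0.263), with scaling to the 50th percentile (-4.35, adjusted p = 0.132) and with the unmoderated test (adjusted p = 0.119).

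The DNAJA proteins, general partners of cytosolic and mitochondrial HSP70, stayed under 4-fold. Dnaja2 lay at 3.51 and 3.49 in the XX inputs and 5.08 and 5.91 in the XX IPs, which is 3.99-fold (adjusted p = 0.0027), and was 2.05-fold higher in the XY IPs (adjusted p = 0.069). By the adjusted p alone, 4 of 7 DNAJA probes were higher in the XX IPs and 1 in those of XY, beside 25.9% and 20.2% of all probes, and none was lower, beside 22.8% and 20.6%. The Dnaja3 probe among them in XX and the Dnaja4 probe in XY were at background in the IPs. Of the Dnaja1 probes, 2 were higher in the XX IPs, by 1.74 and 1.69, while the third differed by -0.92.

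Both J proteins of the inner mitochondrial membrane among the called members were depleted. Dnajc15, which slows the respiratory chain, lay at 6.06 and 6.31 in the XX inputs and 2.83 and 3.51 in the XX IPs, and at 4.81 and 4.83 in the XY inputs and 1.24 and 2.21 in the XY IPs. It was 8.07-fold lower in XX (adjusted p = 0.00033) and 8.5-fold lower in XY (adjusted p = 0.000409), with 1 of 2 XY IP arrays above background. Dnajc19, part of the motor that imports proteins, lay at 5.39 and 5.59 in the XX inputs, 3.10 and 3.52 in the XX IPs, 4.24 and 4.56 in the XY inputs and 1.74 and 2.39 in the XY IPs. It was 4.53-fold and 5.03-fold lower, without overlap, and without XX IP replicate 1 the XX difference was -1.97.

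The mitochondrial chaperonins Hspd1 and Hspe1 and the mitochondrial HSP70 Hspa9 showed smaller differences. The brightest Hspd1 probe differed by -0.85 in XX and -1.18 in XY, neither past the test. Its second probe was called depleted in XY, where no IP array was above background, so it was at least 2.25-fold lower, and without XY IP replicate 1 the difference was -1.65. Hspe1 differed by -1.10 and -0.38, and the brightest Hspa9 probe by -0.82 and -0.68.

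The remaining depleted DNAJ members were called in 1 sex each. Dnajb12, a J protein of the ER membrane, was 4.55-fold lower in XX (adjusted p = 0.00655), a difference that was -1.36 without XX IP replicate 1, while its dimmer probe, at background in the XX IPs, differed by 0.56. Dnajc2, a ribosome-associated J protein, was at least 1.67-fold lower in XY, where both IP arrays were at background, and its difference of -2.05 was -1.78 without XY IP replicate 1. Dnajc4 was at background on both XX IP arrays and at least 1.66-fold lower than its inputs, which lay at 1.32 and 1.46.

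The CCT ring did not move as 1 unit. Cct2 lay at 6.01 and 5.86 in the XX inputs, 7.37 and 8.16 in the XX IPs, 6.41 and 6.39 in the XY inputs and 7.66 and 8.34 in the XY IPs. It was higher by 1.84 in XX and 1.60 in XY, under 4-fold, while its second probe was called in XX (2.02, adjusted p = 0.00223) and fell under the limit without XX IP replicate 2 (1.87). Cct8 was higher in the XY IPs by 1.80 (adjusted p = 0.0058) and differed by 0.99 in XX (adjusted p = 0.069). Cct4 was 4.14-fold lower in XX, and by 1.50 on the log2 scale without XX IP replicate 1. It was not called in XY, where it ranked 16729 of 18253 probes from the highest difference, beside 16554 in XX. Cct3 was at background in all 4 IPs, at least 1.4-fold lower in XX and 1.5-fold in XY, and its XX difference was -1.96 without XX input replicate 1. Cct5 and Cct7 were lower by 1.30 and 1.32 in XX, and Cct6b differed by -0.24. By the same ranks Cct5 lay at 14454 in XX and 14295 in XY, and Cct7 at 14513 and 15669.

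Among cytosolic HSP70 proteins, Hspa8, the constitutive HSC70, was lower by 1.55 in XX and 1.52 in XY at its brightest probe. The other probe was called in XY only by its own value of -3.11 (8.62-fold, adjusted p = 0.00408), with 1 of 2 IP arrays above background. This value was -2.09 without XY IP replicate 1 and -4.13 without XY IP replicate 2. The sexes differed there by 1.17, which did not pass the test (adjusted p = 0.62). Hspb1, the small heat shock protein HSP27, was at background on both XX IP arrays, at least 2.3-fold lower than its inputs, and 4.46-fold lower in XY (adjusted p = 0.00187). Tmem208 was 3.6-fold lower in XX.

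**Figure D3:**
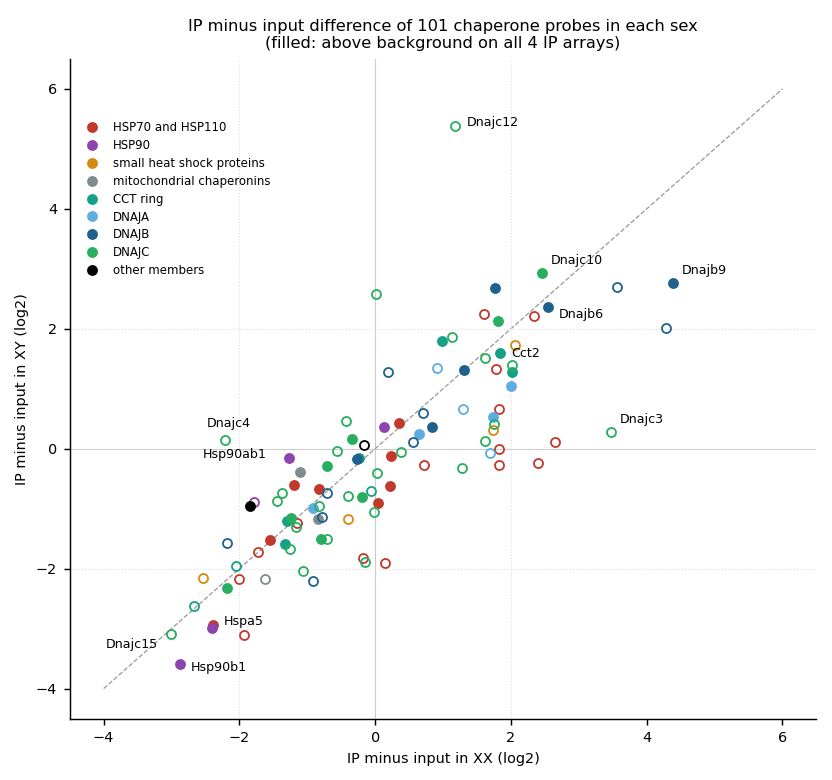
IP minus input difference in XX (x axis, log2) against that in XY (y axis, log2) for the 101 probes, coloured by family, filled where all 4 IP arrays were above background. The dashed line marks equal values; Dnajc12 lies far above it, the Dnajc3 probe called in XX far below it, and Hspa5, Hsp90b1 and Dnajc15 lie low in both sexes.

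The HSP110 relatives of HSP70, which exchange its nucleotide, gave unlike values between probes of the same gene, as the plot of separate probes shows. Of the 28 member genes with several kept probes, Hspa4l had 4. The probes at chr3:40885993-40886052 and chr3:40886062-40886121 differed by 0.05 and 0.23 in XX and by -0.90 and -0.12 in XY. The probes further 3′, at chr3:40886807-40886866 and chr3:40887383-40887442, differed by 2.33 and 1.61 in XX and by 2.22 and 2.25 in XY. Of these, the nearer was above background on 2 XX IP arrays and 1 XY IP array, and the last on no IP array. In the inputs, the first pair differed between XX and XY by -0.90 and -0.77, which did not pass the test. Of the second pair, the nearer was higher in XX by 2.26, and the last was at background in both XY inputs, at least 2.14-fold lower than in XX.

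Hspa4 was split as well. Its brightest probe (chr11:53103268-53103327) differed by 0.35 in XX and 0.42 in XY, while that at chr11:53105844-53106357 was lower in XX by a value just short of the 4-fold limit and 4.49-fold lower in XY (adjusted p = 0.00127). Hsph1, the third HSP110 gene, was lower by 1.20 in XX (adjusted p = 0.033) and differed by -0.60 in XY.

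**Figure D4:**
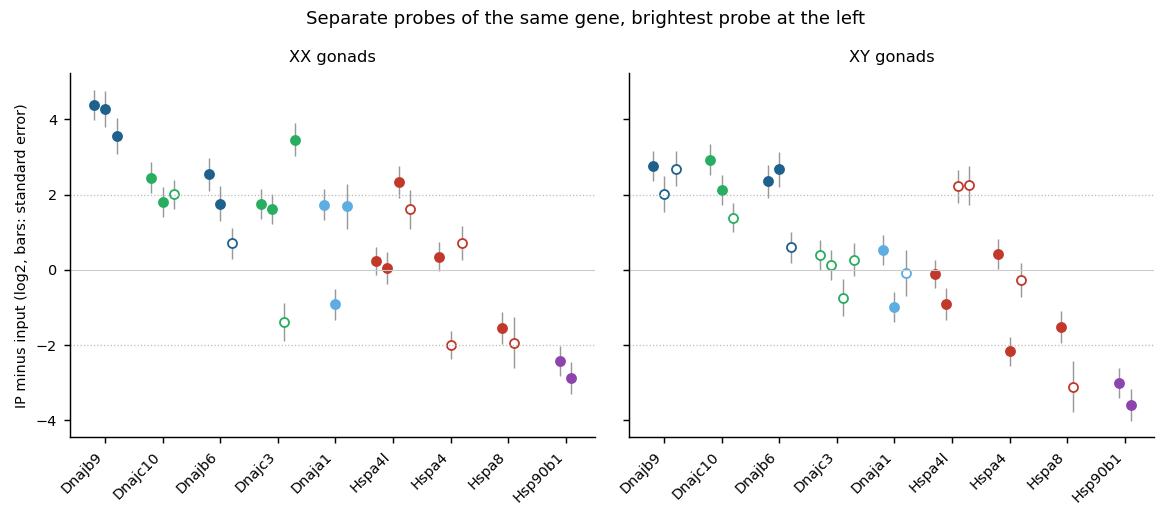
IP minus input difference (log2, y axis) of each probe of 9 genes (x axis), brightest probe at the left of each gene, in XX (left) and XY gonads (right). Bars are standard errors, filled points were above background on both IP arrays of that sex; the 3 Dnajb9 probes lie together in XX, while those of Dnajc3, Dnaja1, Hspa4l and Hspa4 lie on both sides of 0 or apart from each other.

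The inputs show the level of chaperone RNA in the gonads of each sex, relative to the other RNAs on the array. Of the 101 probes, 6 were higher in XX (5.94%; 5.87% of all probes) and 8 in XY (7.92%; 6.08% of all), by the adjusted p with no fold limit. In whole gonads fewer cells of a type and less RNA per cell cannot be told apart, and since the XX arrays lay on 1 slide and the XY arrays on another, sex and slide cannot be told apart either. Markers of 2 cell types found in XY moved with the sexes: the 5 Sertoli markers summed to 1.71 to 1.81 in the XX inputs and 179.7 to 214.2 in the XY inputs, and the 4 Leydig markers to 2.43 to 3.49 and 77.34 to 82.29. Of the 7 germ cell markers 4 were higher in the XY inputs and none in those of XX, with Dppa3 18.2-fold and Tdrd1 9.79-fold higher. Krt8 and Krt18 of epithelium had the lower sum in XY, as given above. The part of these cells was not tested. Of the 2 pregranulosa markers that passed the filter, Fst was at background in the XY inputs.

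The stress-inducible HSP70 genes Hspa1a and Hspa1b were higher in the XY inputs. Hspa1a lay at -1.41 and -1.32 in XX and 2.34 and 2.14 in XY (-3.60, adjusted p = 0.000266), and its second probe, which overlaps the first, differed by -3.46. Hspa1b was at background in both XX inputs and at -0.37 and -0.81 in XY, at least 5.17-fold higher. These genes are near-identical copies, so signal may be shared between their probes. In the XY IPs Hspa1a was lower than the input by 1.83 (adjusted p = 0.0077) and was above background on 1 of 2 arrays.

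Hspbap1, a protein that binds HSPB1, was also higher in XY, at 0.43 and 0.59 in the XX inputs and 3.10 and 3.10 in the XY inputs (-2.59, adjusted p = 0.00251). Its IP-minus-input differences of -0.16 in XX and 0.07 in XY did not pass the test. In XX it was not above background on every array. Hspb1 itself was higher in the XY inputs by 1.38, and Hspa12a, a distant HSP70 relative, by 2.15 and 1.73 at 2 of 3 probes, each above background on 1 of 2 XX input arrays. One Dnaja1 probe was higher in XY by 1.39. Of the 14 input calls, 10 were lost without at least 1 array, and 1 held under every alternative of scaling, background, filter and test that was run, that of the Hspa1a probe given first. The second Hspa1a probe was lost with quantiles and the unmoderated test, and Hspbap1 with normexp, the 50th percentile and the unmoderated test.

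Hspa2, an HSP70 of germ cells that is known from meiosis, was higher in the XX inputs. It lay at 2.03 and 1.83 in XX and 0.19 and 0.38 in XY, a difference of 1.64 (adjusted p = 0.0287), and 1.51 at its second probe. The germ cell markers that differed between the inputs were higher in XY, and Krt18 was 3.44-fold higher in XX, so these lists moved with the sexes here too, and their part was not tested. In the XX IPs it reached 3.55 and 3.94, which is 3.54-fold over input (adjusted p = 0.0051) and under the limit of 4. In XY the IPs lay at -0.50 and 0.52, of which 1 was above background. The IP-minus-input difference was higher in XX by 2.10, and this did not pass the test (adjusted p = 0.092). The other probes higher in XX were the second pair of Hspa4l given above, the Dnajc3 probe named above (1.48) and Dnajc6, the clathrin-uncoating protein auxilin. Dnajc6 was at background in both XY inputs, at least 2.54-fold lower than in XX. Without any 1 input array fewer members were higher in either sex, and so were fewer of all probes. Over the arrays left out in turn, the Hspa2 input difference ranged from 1.54 to 1.74, and from 1.28 to 1.74 at its second probe.

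**Figure D5:**
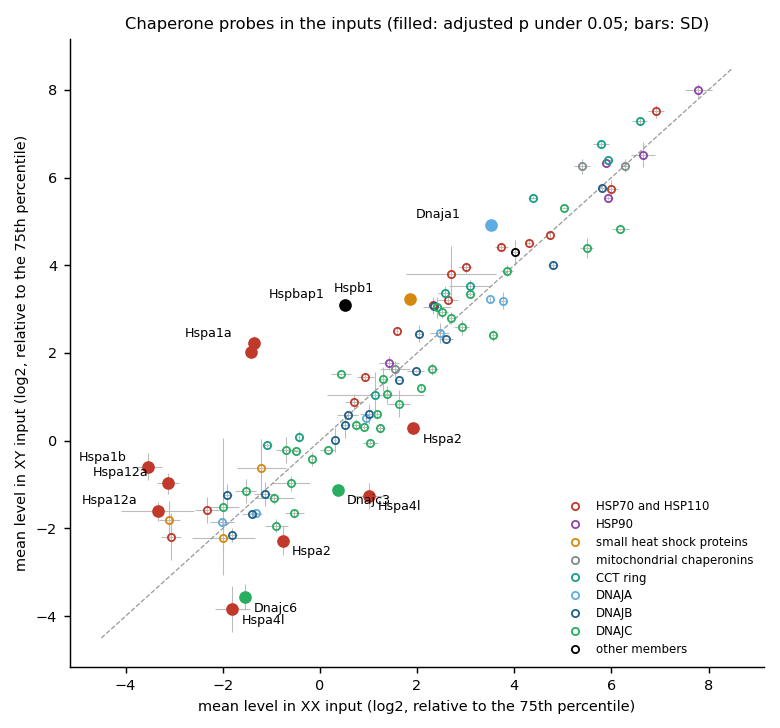
Mean level of each of the 101 probes in the XX inputs (x axis) and in the XY inputs (y axis), log2 relative to the array's 75th percentile, with SD bars over 2 arrays. Filled points passed the adjusted p of 0.05 and the dashed line marks equal levels. Hspa1a and Hspbap1 lie above the line, and Hspa2 and the filled points of Hspa4l below it.

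The IP-minus-input difference itself was compared between the sexes for all 101 probes. It was higher in XX for 3 (2.97%; 2.17% of all probes) and in XY for 3 (2.97%; 1.12% of all). Beside Dnajc12, the Dnajc3 probe (3.20 higher in XX, adjusted p = 0.0211) and Dnajc4 (lower in XX by 2.36, adjusted p = 0.0426) had IP signal above background in 1 sex only. Both XY IP arrays of the former and both XX IP arrays of the latter were at background, so the sizes of these differences were not measured. Hspa1b and Hspa12a (higher in XX) and Dnajc6 (higher in XY) were at background in all 4 IPs. Their inputs differed between the sexes, and they had passed the filter through the sex in which both input arrays detected them. Without any 1 of the 4 input arrays the calls higher in XX were lost, as were those higher in XY but for Dnajc12. Without XX IP replicate 1 fewer members were higher in XX, and without XX IP replicate 2 or XY IP replicate 2 more were. The calls of all probes fell and rose in the same way.

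Background values also made up part of the enriched counts. Hspa1b (2.65), Hspa12a (2.40) and Hspb9, a small heat shock protein of testis (2.06), were called enriched in XX, and Dnajc6 (2.58) and the last Hspa4l probe (2.25) in XY, with no IP array above background. No fold is given for them.

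Genes that work with the members under other names were followed as a list of 71, of which 67 passed the filter. In XX, 6 were enriched and 13 depleted, and in XY 7 and 13, with medians of -0.69 and -0.66. These are 8.96% and 19.4% in XX and 10.4% and 19.4% in XY, beside 13.6%, 11.3%, 9.96% and 8.40% of all genes at 1 probe per gene, which are also the shares to set beside the counts that follow. Hsf1, the factor that induces heat shock genes, lay at 3.00 and 3.51 in the XX inputs, 6.36 and 6.69 in the XX IPs, 3.46 and 3.73 in the XY inputs and 6.55 and 6.62 in the XY IPs. This is 9.69-fold in XX (adjusted p = 0.000134) and 7.92-fold in XY (adjusted p = 0.000254). The probe lies at chr15:76327357-76327417, and the probes further 3′ differed by -0.39 and -1.36 in XX, and by -0.13 and -1.50 in XY, each above background on at most 1 IP array of a sex. Hsf5, a factor of the same family, was 9.57-fold and 8.24-fold higher. Hsf2 was dim, and Hsf2bp was called in XY at background.

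Of 12 partners of HSP70, none was enriched at its brightest probe, 3 were depleted in XX (25%) and 4 in XY (33.3%). St13, an HSP70-binding cofactor, had unlike probes, as its brightest differed by -1.18 in XX (adjusted p = 0.0382), a second was higher by 1.79 (adjusted p = 0.00524), with both XX IP arrays above background, and the last by 2.30 with none. Stub1, a ubiquitin ligase that binds HSP70, was 10.7-fold lower in XX (adjusted p = 0.000245) and 7.2-fold lower in XY (adjusted p = 0.000958), with 1 IP array of each sex above background. Bag1, a nucleotide exchange factor, was at background in all 4 IPs and at least 3.22-fold and 3.91-fold lower. Of 17 HSP90 co-chaperones, 2 were enriched and 3 depleted in XX, and 2 and 2 in XY. Tomm70a, a mitochondrial receptor for HSP90 clients, was 5.77-fold and 11.3-fold higher at its brightest probe and differed by 0.25 and 0.26 at a probe further 5′. Cdc37l1 was 6.01-fold higher in XY. Sugt1 was 8.07-fold and 4.26-fold lower. Chordc1, an HSP90 binder, lay at 5.24 in the XX IPs on average and 2.66 in their inputs, 5.99-fold higher (adjusted p = 0.000621). It differed by -0.34 in XY, a difference between the sexes that passed the test (adjusted p = 0.0253). This difference was not followed through the alternatives of processing, and sex and slide cannot be told apart.

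Prefoldin hands actin and tubulin to the CCT ring. Of 9 genes of prefoldin, the ring subunit Tcp1 and the phosducin-like proteins Pdcl and Pdcl3, 2 were enriched and 1 depleted in XX, and 1 and 2 in XY. Pfdn2 was 8.51-fold higher in the XX IPs (adjusted p = 0.000302) and 23.3-fold higher in the XY IPs (adjusted p = 5.73e-05). Vbp1 was 9.42-fold and 2.8-fold higher, with its second probe at 3.10 and 1.28. Pfdn1 and Pfdn6 were lower in XY by 2.31 and 2.34, and in XX by 2.40 and 1.51. Tcp1, the first CCT subunit, differed by -1.09 in XX and was lower by 1.43 in XY (adjusted p = 0.0285).

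Of 6 mitochondrial chaperones and proteases, 3 were depleted in each sex (50%) and none enriched at the brightest probe: Clpp (2.78 lower in XX), Lonp1 (2.14) and Trap1 (at background in the XX IPs, at least 1.3-fold lower). A second probe of Clpx, the partner of Clpp, was higher in XY by 2.30 (adjusted p = 0.03), with 1 of 2 IP arrays above background, while its brightest differed by -0.93. Of 14 further genes of ER folding and the unfolded protein response, none was enriched and 3 were depleted in XX, and 1 and 2 in XY. At its brightest probe Canx, a membrane-bound chaperone of glycoproteins, was higher in XX by 1.52 (adjusted p = 0.00778) and in XY by 1.24 (adjusted p = 0.0261), under 4-fold. Its other probes differed by 1.39 and 0.06 in XX, and by 0.40 and 0.37 in XY, where neither passed the test. Calr, its soluble relative, was 5.46-fold and 4.74-fold lower at its brightest probe. Pdia4 and Pdia6, which form disulfide bonds, were lower in XX by 2.01 and 2.12, and in XY by 1.96 and 1.99. Atf6, a sensor of unfolded proteins in the ER, was 8.1-fold higher in the XY IPs at its brightest probe (adjusted p = 0.000235). It differed by 0.62 in XX, a difference between the sexes that passed the test (adjusted p = 0.0383). With the unmoderated test 0 of all probes on the array had a higher difference in XY, and sex and slide cannot be told apart. The other Atf6 probe was at background in all 4 IPs.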

How the data were processed

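Input and DAZL-precipitated RNA of E14.5 XX and XY mouse gonads had been hybridized to 8 one-colour Agilent whole mouse genome arrays, 2 per group. The deposited scanner files hold a processed signal intensity for each spot, background-subtracted by Feature Extraction (version 9.5 in the submitters' processing notes, 9.5.3.1 in the headers, and another version in the study's methods) and not normalized between arrays, with other columns for detection, saturation and outlier marks, mean signal and local background. The deposited value table holds log2 values that the authors scaled to the 75th percentile after setting values under 1 to 1, and it was used as an alternative.

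From the scanner files, controls and outlier spots were dropped, values below 1 were raised to 1, repeat spots were averaged, and log2 values were taken relative to the array's 75th percentile (6.83 to 13.1 in the IPs, 77.4 to 173 in the inputs). Of 41101 probes usable, 18253 (44.4%) passed the filter (well above background on each array of some group) and were tested with limma 3.58.1 in R 4.3.3 (lmFit and eBayes, 1 mean per group, all 8 arrays, Benjamini-Hochberg adjustment). The fit was tested on simulated data. Limits of 4-fold, as in the study, and an adjusted p of 0.05 were used for IP against input, and the adjusted p alone for the sexes and the inputs. The study used 0.05 without naming a test or an adjustment, so these limits are not its own. Arrays, not reads, set the precision, and with 2 per group it is low. A group with no array above background gives only a bound, that is, the brighter mean over the lowest detected signal of the dimmer arrays. The probe with the highest mean over the 8 arrays stands for a gene. Named were Dazl, up to 12 called members in each direction and IP contrast, up to 8 in each direction for the sexes and the inputs, the leading gene of each family, up to 4 called partner genes in each direction and contrast, Hsf1 and Hsf2. Further probes and members were named after their values were seen. Hspg2, which the naming rule held, had no probe under the name rule. Current symbols came from RefSeq, by accession for 111 member probes and by symbol for 24. The members and lists were chosen with earlier results of these data known, so no list is independent evidence. Probe positions are those of the array files (mm8), and probe sequences were not used here. Alternatives covered background correction, scaling, the dim-probe filter, the deposited table, slide, replicate block, test and each array left out.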

Additional observations from a re-analysis of the deposited data

Results flagged for a closer look

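The IP-minus-input difference passed the test of a difference between XX and XY for 6 probes of members. Dnajc12 differed by -4.2 (XX minus XY), with the XY IPs far above their inputs. The Dnajc3 probe at chr14:117861467-117861526 differed by 3.2, with the XX IPs above their inputs and the XY IPs at background, and the other probes of Dnajc3 differed between the sexes by 1.34, 1.48 and -0.64, none past the test. Dnajc4 differed by -2.36, with the XX IPs at background. Dnajc6 differed by -2.57, Hspa12a by 2.63 and Hspa1b by 2.54, and these 3 were at background in every IP. Sex and slide cannot be told apart in any of them.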

How the results depend on the processing

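The number of member probes called depended on how background and scale were set. In the order enriched in XX, depleted in XX, enriched in XY, depleted in XY, higher difference in XX, higher difference in XY, higher XX input and higher XY input, the counts were 12, 10, 11, 11, 3, 3, 6 and 8. Over all 18253 probes the same order gave 2562, 1810, 1860, 1403, 396, 204, 1072 and 1110. With normexp background correction the member counts were 1, 20, 1, 13, 0, 0, 2 and 2, beside 79, 2055, 65, 1038, 0, 0, 455 and 231 of all probes. With normexp after replacing outlying local backgrounds, an alternative added after seeing the data, they were 1, 20, 1, 23, 2, 1, 9 and 8. Over all probes this gave 79, 2055, 80, 1942, 140, 118, 1469 and 1345. Quantile normalization gave 7, 19, 7, 15, 2, 4, 6 and 5, beside 1479, 3286, 1241, 2478, 491, 423, 791 and 682 of all probes. Scaling to the 50th percentile gave 2, 52, 1, 53, 0, 0, 2 and 4, beside 189, 8644, 219, 8379, 18, 9, 510 and 543. The 75th percentile over probes above background on all 8 arrays gave 7, 16, 7, 15, 4, 2, 6 and 9, beside 1664, 2862, 1256, 2184, 354, 232, 935 and 942. A common floor after scaling gave 6, 5, 5, 7, 8, 1, 1 and 6, beside 1061, 637, 717, 455, 661, 446, 552 and 468 of all probes. Without the filter on dim probes they were 45, 10, 41, 12, 0, 1, 1 and 5, where 33.3% of members and 56.8% of all probes were enriched in XX and 30.4% and 54.4% in XY, and with the 39 probes that every array detected 4, 4, 5, 4, 0, 0, 0 and 1. The unmoderated test gave 12, 7, 9, 8, 0, 0, 0 and 3, beside 2148, 1409, 1488, 943, 3, 0, 338 and 296 of all 18253 probes. Fits of the 4 arrays of 1 sex, each within a slide, kept the IP counts within 1.5 times. A fit of the 4 inputs alone gave 20 member probes higher in XX input and 29 in XY input. Over all probes the fit of the inputs gave 4133 higher in XX input and 3927 in XY input. The deposited table kept every count within 1.5 times. Without each array in turn the counts ranged from 11 to 19, 8 to 14, 9 to 12, 11 to 15, 0 to 8, 1 to 3, 0 to 9 and 4 to 9.

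The member median was -0.0656 in XX and -0.275 in XY. It was -0.528 and -0.37 with normexp (-0.597 in XY with replaced backgrounds), -0.657 and -0.806 with quantiles, -2.07 and -2.14 at the 50th percentile, -0.492 and -0.602 with the percentile over detected probes, 0 in both with the common floor, 0.906 and 0.272 without the filter (2.54 and 2.38 over all probes) and -0.236 in XX with the 39 probes. The median of all probes moved too by scaling, to -1.92 and -1.90 at the 50th percentile and to -0.744 and -0.727 with quantiles, but lay at -0.000901 and -0.0431 with normexp and at 0.557 in XX over probes detected on every array, apart from the members' medians there. Without each array in turn the member median ranged from -0.128 to 0.107 in XX and from -0.543 to -0.131 in XY. Of the named values, 3 changed sign: the XX-minus-XY input difference of Dnajc6 (-0.219) and of the last Hspa4l probe (-0.195) with normexp, both detected in the XX inputs and not in those of XY, and that Hspa4l probe's IP difference in XY (-0.401), a background value, with quantiles. The cause of these changes was not tested.

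Replicate numbers were not shown to pair the arrays, as the deviations of same-numbered inputs and IPs correlated by 0.031 in XX and 0.138 in XY over 4200 probes. With the replicate number as a block, 6 probes had a higher difference in XX and 3 in XY, and the IP counts were 12, 10, 11 and 12. Signal over background limits the IPs, where 34 kept member probes in XX and 35 in XY had no IP array above background.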
